A study of Mus musculus with 2 samples.

Results

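The interleukins, the colony-stimulating factors and their receptors were examined in mouse RNA-seq libraries labelled as retina. The genes were taken by name: every entry of both count tables whose symbol begins with Il and a digit, Csf1, Csf2 and Csf3, and Lif, Lifr, Osm, Osmr and Tnf. The rule gave 93 of 52636 entries, carrying 91 symbols. The symbol Il11ra2 stood on 3 identifiers. Of the 93 entries, 37 had 50 or more counts in at least 1 library, 29 had between 1 count and 49, and 27 had no count in either.

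Both groups were C57BL/6 mice at 8 weeks of age, wild type (WT) in one and lacking the microRNA miR-29a (miR-29a KO) in the other. Each group was 1 library made from the pooled retinas of 3 mice. How the deletion was made is not given in the sources used here. With 1 library per group there was no replicate check and no test, so every difference below is between these 2 libraries and not between the genotypes.

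Cytokines of these families are small secreted proteins that act on cells carrying the matching receptor chains. IL-6, IL-11 and LIF signal through the shared chain gp130, encoded by Il6st, and the JAK kinases to the transcription factor STAT3. IL-1 and IL-33 signal through receptors that share the chain IL1RAP to the adaptor MyD88 and NF-kappaB, and the colony-stimulating factors control the growth and survival of macrophages and granulocytes. In the retina such cytokines are known mainly from Mueller glia and microglia, and LIF as a survival factor for photoreceptors.

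Total counts were 26805902 (WT-labelled library) and 24876925 (KO-labelled library). Where a gene had no count, up to 3 counts remain possible, which is 0.112 CPM and 0.121 CPM in that order (CPM, counts divided by the library total and scaled to a round sum). Intervals are at 95% and hold counting error alone, with reads treated as independent. The reads carry no molecular identifiers and are not independent molecules, so the intervals may be too narrow even for counting error. The markers went against the labelled tissue. A list of 9 retinal neuron markers, among them Gnat1, Sag and Opn1sw, summed to 0.224 CPM and 0.322 CPM, with Gad1, Grm6, Lhx1 and Pou4f2 at 0 in both libraries, whereas 8 fibroblast markers summed to 9849 CPM and 11372 CPM. Mir29a, the gene named in the KO label, had 0 counts in both libraries, which checks neither label. Xist had 4288 counts in the WT-labelled library and 0 in the other, so the libraries also differed in a sex-linked transcript. That difference goes with the labels, so for every gene, on any chromosome, its part cannot be told apart from that of the label. The libraries are named by their labels throughout.

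The mature miR-29a-3p (chr6:31062673-31062694, minus strand, GRCm38.p6, from RefSeq) is shown first because its absence defines the KO label. Capitals mark its seed, bases 2 to 8, which pairs with the heptamer TGGTGCT in a target.
miR-29a-3p: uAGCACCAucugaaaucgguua
Of 36 family genes past the 50-count minimum with an annotated 3' UTR, 7 held the heptamer, or 19.4%, against 16.1% of 11585 such genes in the whole table. The searched 3' UTRs had a median length of 1685 bases in the family and 1225 bases in the whole table. The shares were not adjusted for this length. The 7 genes were Il1rap, Lif, Il6, Il6st, Il6ra, Il16 and Il1rl2. The sites of the first 5 are printed with the heptamer in capitals, because the ligands and receptors of the gp130 pathway and Il1rap are the genes on which the values below turn.
Il1rap site: ggaagctttaaTGGTGCTaatggagagt
Lif site: tattaacttatTGGTGCTttaaatggca
Il6 site: aaataagatggTGGTGCTgacctctgga
Il6st site: atatcagacagTGGTGCTgtgaacgttg
Il6ra site: gtaggtgcagcTGGTGCTgcataggctc
Il6ra site: gagccacagtgTGGTGCTtagattaaag
Il1rap held its site at chr16:26715853-26715859 (GRCm38, plus strand) in an exon of 1 of 4 annotated coding transcripts, and it was the only one of these sites followed by an A. The Lif site, chr11:4270514-4270520 (plus strand), lay in an exon of both of its 2 coding transcripts. For Il6, chr5:30019084-30019090 (plus strand) lay in an exon of 1 of 4 coding transcripts, and the Il6st site at chr13:112506451-112506457 (plus strand) in 2 of 9. Both Il6ra sites, chr3:89871000-89871006 and chr3:89869710-89869716 (minus strand), lay in an exon of each of its 2 coding transcripts. The 7 genes with a site did not share a direction, with 4 log2 ratios above 0 and a median of 0.05, and the 29 others had a median of -0.05. Among all genes past the minimum the medians were 0.14 with the heptamer and 0.05 without.

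The promoters shown next are those of the genes whose whole counting interval lay beyond a 2-fold difference, where RefSeq gave one, together with Il11 and Lif, which were added after their values were seen. Each runs from 250 bases before to 50 bases after the annotated start, on the strand of the gene, in GRCm38.p6. Capitals mark matches to 4 motifs searched on both strands, TTCNNNGAA (STAT), TGANTCA (AP-1), GGGANTTTC (NF-kappaB) and GAAANNGAA (interferon response).
Il6 promoter: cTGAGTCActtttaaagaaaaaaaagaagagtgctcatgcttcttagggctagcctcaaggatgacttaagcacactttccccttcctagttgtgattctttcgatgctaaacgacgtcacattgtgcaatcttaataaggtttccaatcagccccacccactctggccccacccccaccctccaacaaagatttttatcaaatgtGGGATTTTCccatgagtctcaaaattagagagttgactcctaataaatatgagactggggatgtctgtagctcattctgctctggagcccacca
Il11 promoter: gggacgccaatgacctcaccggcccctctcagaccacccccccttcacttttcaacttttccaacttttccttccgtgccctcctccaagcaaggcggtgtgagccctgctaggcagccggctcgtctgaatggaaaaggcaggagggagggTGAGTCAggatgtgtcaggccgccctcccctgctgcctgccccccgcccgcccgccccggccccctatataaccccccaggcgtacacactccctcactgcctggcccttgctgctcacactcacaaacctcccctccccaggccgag
Lif promoter: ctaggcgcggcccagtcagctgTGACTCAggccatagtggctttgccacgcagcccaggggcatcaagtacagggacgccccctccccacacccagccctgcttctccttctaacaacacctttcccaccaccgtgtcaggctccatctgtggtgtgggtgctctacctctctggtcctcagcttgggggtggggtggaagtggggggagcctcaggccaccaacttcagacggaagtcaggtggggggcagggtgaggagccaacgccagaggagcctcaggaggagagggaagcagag
Il13ra2 promoter: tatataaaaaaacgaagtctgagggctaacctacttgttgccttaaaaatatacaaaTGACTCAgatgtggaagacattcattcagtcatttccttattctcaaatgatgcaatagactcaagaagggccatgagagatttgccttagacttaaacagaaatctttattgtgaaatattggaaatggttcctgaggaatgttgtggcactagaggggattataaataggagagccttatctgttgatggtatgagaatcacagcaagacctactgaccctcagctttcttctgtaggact
Il1rap promoter: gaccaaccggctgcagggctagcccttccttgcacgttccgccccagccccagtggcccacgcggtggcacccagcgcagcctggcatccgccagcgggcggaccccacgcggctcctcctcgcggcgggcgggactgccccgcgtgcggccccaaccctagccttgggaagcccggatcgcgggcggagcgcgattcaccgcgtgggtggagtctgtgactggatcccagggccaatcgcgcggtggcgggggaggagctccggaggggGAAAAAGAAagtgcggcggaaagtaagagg
The windows are chr5:30012864-30013163 (plus strand) for Il6, chr7:4778092-4778391 (minus strand) for Il11, chr11:4257318-4257617 (plus strand) for Lif, chrX:147429143-147429442 (minus strand) for Il13ra2 and chr16:26581455-26581754 (plus strand) for Il1rap. Il11 has another window that held no match. In Il6 an AP-1 match begins 249 bases and an NF-kappaB match 44 bases before the start. AP-1 matches begin 98 bases before the start in Il11, 228 in Lif and 193 in Il13ra2, and Il1rap holds an interferon-response match 20 bases after it. Of the 41 windows of 30 matched genes past the minimum, 24.4% held the AP-1 letters, against 7.81% of all 32851 windows and 5.11% of windows of genes past the minimum. The NF-kappaB letters were in 7.32% of these windows (Csf1, Il16 and Il6), against 1.11% of all windows and 0.882% of those of genes past the minimum. For the STAT letters the shares were 2.44%, 8.30% and 6.61%, and for the interferon-response letters 7.32%, 8.56% and 7.11%, in the same order. In the 100 bases before the start alone, the AP-1 letters were in 9.76% of the family windows against 1.82% of windows of genes past the minimum, the NF-kappaB letters in 4.88% against 0.303%, and the STAT and interferon-response letters in 0 of 41 against 2.13% and 1.96%. A match describes the letters in a window and is no evidence that a factor binds there.

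Together the family entries took 0.557% of counts in the WT-labelled library and 0.680% in the KO-labelled library. The 5 most counted took 53.5% and 62.2% of that. Csf1 led in both, followed by Il6st, Il11, Il11ra1 and Lif in the WT-labelled library and by Il11, Lif, Il1rn and Il33 in the KO-labelled library. Per length, by the authors' FPKM, Il11 stood first over both libraries, then Csf1, Csf3, Lif and Il33, and only 1.44% of genes past the minimum had a higher mean FPKM than Il11.

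**Figure D1:**
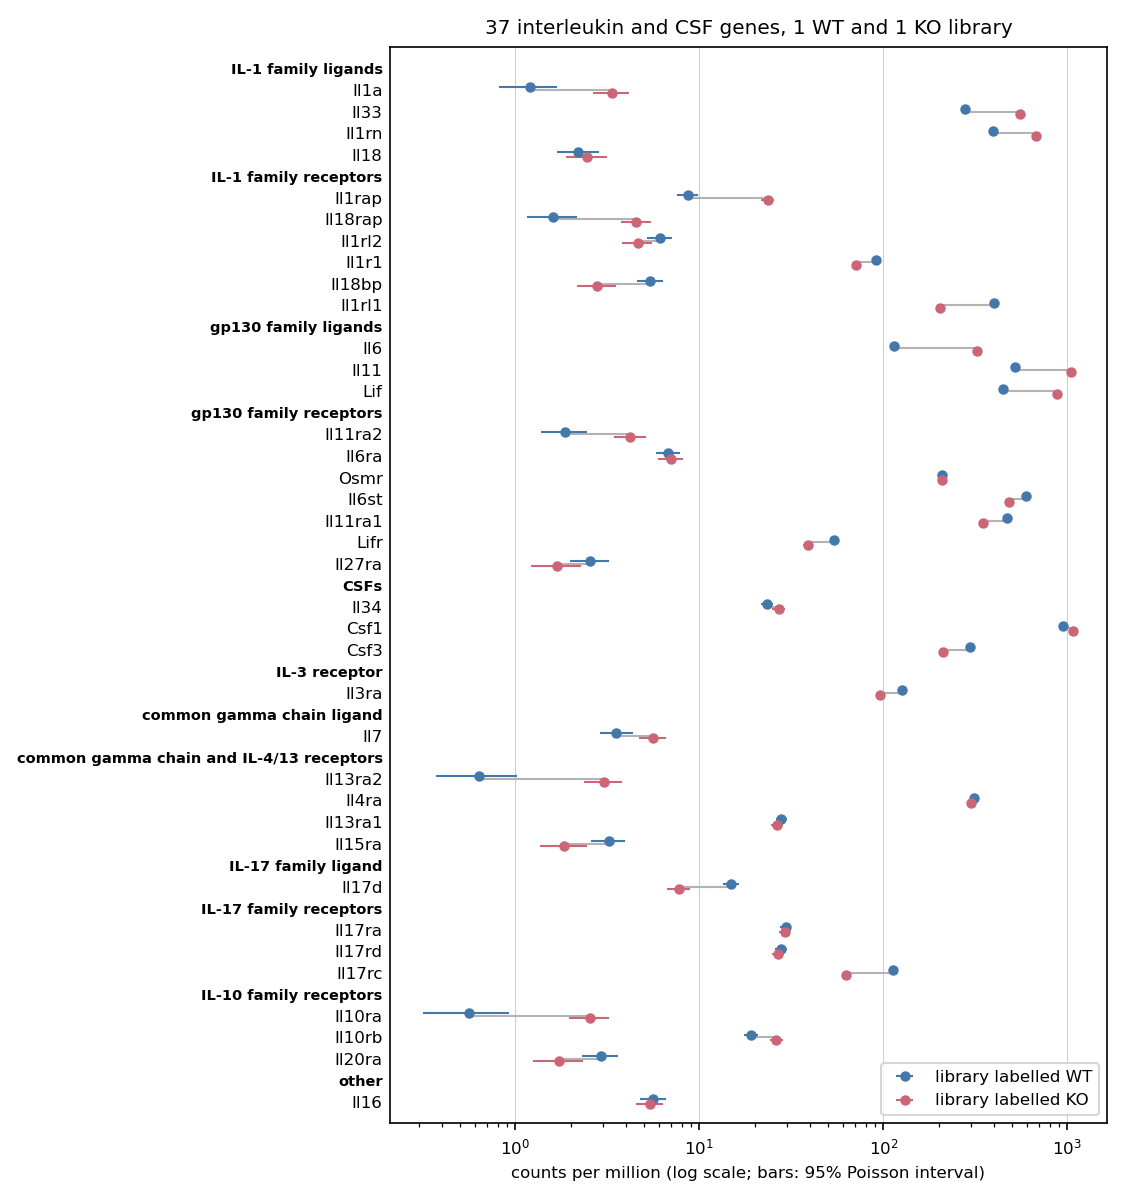
CPM (log scale) of the 37 family genes past the minimum in the WT-labelled library (blue) and the KO-labelled library (red), grouped by family, with 95% exact Poisson intervals. The genes run from Il10ra at 0.560 CPM to Csf1 at 1079 CPM, and the ligands Il6, Il11, Lif, Il33 and Il1rn sit to the right in the KO-labelled library.

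Counted at 2-fold on log2 of CPM + 0.5, 7 of the 37 genes, or 18.9%, were higher in the KO-labelled library, where 4.47% of all 12382 genes past the minimum were. None was lower by 2-fold, against 2.82% of all genes. This split of 7 to 0 became 6 to 1 under edgeR's TMM factors and under median-of-ratios factors, 3 to 1 by the authors' FPKM and 5 to 2 after a correction for GC content and length. The shares of all genes were 4.12% higher and 2.96% lower under TMM factors, 3.84% and 3.21% under median-of-ratios factors, 2.60% and 2.33% by FPKM, and 3.59% and 2.90% after that correction. The 7 were Il6, Il11, Il1a, Il1rap, Il18rap, Il13ra2 and Il10ra. Of these, Il1a, Il18rap, Il13ra2 and Il10ra had under 50 counts in the WT-labelled library and entered through the other library alone. With 50 or more counts required in both, 3 of 30 were higher, Il6, Il11 and Il1rap, where 3.06% of all genes were. The whole interval lay beyond 2-fold on the higher side for Il6, Il1rap, Il13ra2 and Il10ra and on the lower side for none, and 3% and 1.82% of all genes reached this. At 1.5-fold, 12 family genes lay higher, where 13.3% of all genes did, and 6 lay lower, where 8.88% did. Counting intervals lay off 1 for 30 of the 37 genes, 15 above and 15 below, and 40.3% and 31.2% of all genes did so. The share above 1 was thus near the background, and the share below 1 was somewhat over it. The median log2 ratio was -0.02, against 0.06 for all genes, and 18 genes were above 0.

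**Figure D2:**
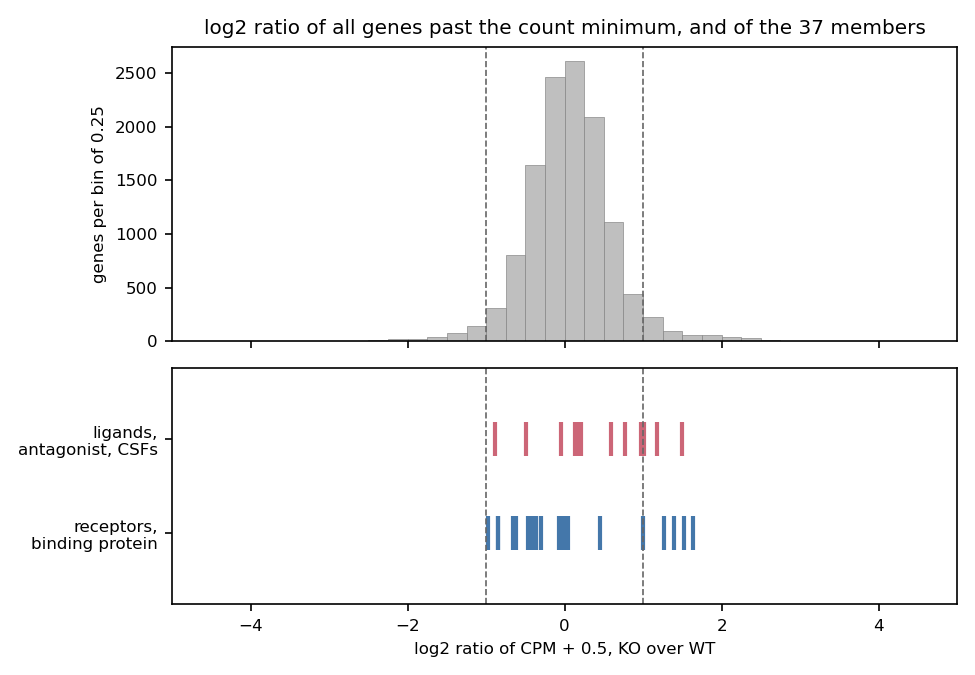
Upper panel, number of all genes past the minimum per bin of log2 ratio (CPM + 0.5, KO over WT; values beyond the axis are in the end bins). Lower panel, 1 line per family gene, with ligands, the antagonist and CSFs (red) above receptors and the binding protein (blue); dashed lines mark 2-fold, and the family genes run from -0.98 for Il1rl1 to 1.63 for Il13ra2.

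Of the 6 ligand genes listed under the gp130 family, Il6 and Il11 were 2-fold higher in the KO-labelled library, Lif lay just under that line, and Osm, Il27 and Il31 had few counts or none. Of the 7 receptor entries past the minimum none was called 2-fold higher or lower, and 4 had log2 ratios below 0. The Il11ra2 entry on chromosome 4 fell just short of the call, at a log2 ratio of 0.997. With no pseudocount its ratio was 2.26 (1.60 to 3.24), and some other settings called it higher, as given below. The ligands summed to 1081 CPM in the WT-labelled library and 2247 CPM in the KO-labelled library, and the receptor chains to 1338 CPM and 1093 CPM. In such pooled tissue, fewer cells of a type and less RNA per cell cannot be told apart.

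Il6 encodes the inflammatory cytokine that drives the acute-phase response (ENSMUSG00000025746, chr5:30013114-30019981, plus strand, GRCm38). It had 3047 counts in the WT-labelled library, or 114 CPM (110 to 118), and 8025 in the KO-labelled library, or 323 CPM (316 to 330). The intervals do not overlap, and the level was 2.84-fold higher (2.72 to 2.96) in the KO-labelled library. Il11, which encodes a cytokine known for its part in fibroblast activation (chr7:4772373-4782859, minus strand), had 13937 and 26018 counts, or 520 CPM and 1046 CPM. It was 2.01-fold higher (1.97 to 2.05), so its interval spans the 2-fold line. Lif, the leukemia inhibitory factor gene (chr11:4257557-4272514, plus strand), had 11982 and 21849 counts, or 447 CPM and 878 CPM. Its ratio of 1.96 (1.92 to 2.01) fell just short of 2-fold on the log2 scale, at 0.97. These 3 genes thus lay close to or past 2-fold. Osm, the oncostatin M gene, had 9 and 7 counts, Il27 had 0 and 1, and Il31 had none, so Il6, Il11 and Lif carried nearly all ligand counts of the family.

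Il6st, the signalling chain shared by IL-6, IL-11 and LIF, had 15906 and 11945 counts, 593 CPM and 480 CPM, and was 1.24-fold lower (1.21 to 1.27) in the KO-labelled library. Il11ra1, the IL-11 binding chain, had 12665 and 8693 counts and was 1.35-fold lower (1.32 to 1.39). Lifr, the LIF binding chain, had 1440 and 970 counts and had a ratio of 0.726 (0.668 to 0.788). Each of these receptor chains was therefore lower where its ligand was higher, by less than 1.5-fold. Osmr, the oncostatin M receptor chain, was level at 207 CPM and 209 CPM, with a ratio of 1.01 (0.972 to 1.05). Il6ra, the IL-6 binding chain, was scarce, with 181 and 174 counts (ratio 1.04, 0.836 to 1.28). Il27ra had 68 and 42 counts (ratio 0.666, 0.442 to 0.992), and Il31ra 4 in each library.

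Il11ra2, a near-identical copy of Il11ra1, had 50 and 105 counts on chromosome 4 (ratio 2.26, 1.60 to 3.24), 3 and 43 on an unplaced scaffold, and none on another. Reads from such copies can be shared or dropped in counting, so these values are uncertain.

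By FPKM, which is per length, ligand transcripts outweighed receptor transcripts by more in the KO-labelled library for Il11, Lif and Il6. Il11 stood at 273 FPKM against 112 FPKM for Il11ra1 in the WT-labelled library, a ratio of 2.45, and at 529 FPKM against 79.5 FPKM in the KO-labelled library, a ratio of 6.65. For Lif over Lifr the ratio was 19.8 and then 53.5. Il6 stood 59.9-fold above Il6ra in the WT-labelled library and 164-fold in the KO-labelled library, and went from below Il6st (49.5 against 56.5 FPKM) to 3.07-fold above it (135 against 44.0 FPKM). Osm stayed far below Osmr in both, at 0.00864 and 0.00717 of its FPKM. These ratios are of transcripts and have no counting interval.

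**Figure D3:**
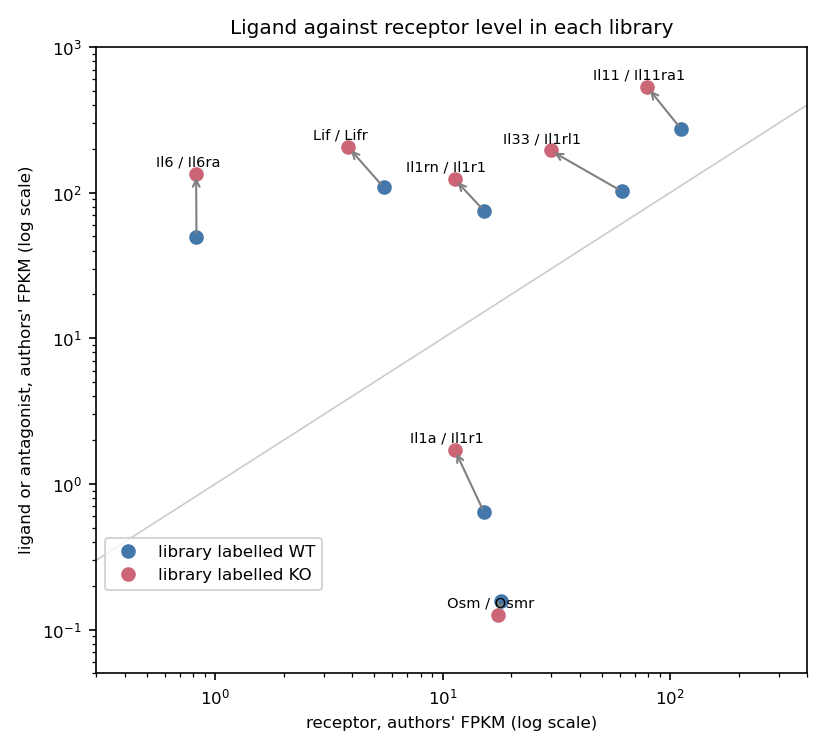
The authors' FPKM of a ligand or antagonist (vertical, log scale) against its receptor (horizontal, log scale) in the WT-labelled library (blue) and the KO-labelled library (red), joined by an arrow; the grey line marks equal levels. Arrows for Il11, Lif, Il33, Il1rn and Il1a point up and left, the arrow for Il6 points straight up, and the Osm pair hardly moves.

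In the IL-1 family the 4 ligand and antagonist genes past the minimum had log2 ratios above 0, and its receptors were split, with 2 above 0 and 4 below. Il33, which encodes a nuclear alarmin released from damaged stromal and epithelial cells (chr19:29925114-29960718, plus strand), had 7491 and 13742 counts, 279 CPM and 552 CPM. It was 1.98-fold higher (1.92 to 2.03) in the KO-labelled library. Its receptor gene Il1rl1, also called ST2 (chr1:40429570-40465415, plus strand), went the other way, with 10689 and 5022 counts, 399 CPM and 202 CPM. That was 1.98-fold lower (1.91 to 2.04), the lowest log2 ratio of the 37 genes at -0.98. A 2-fold call for Il1rl1 depends on the scaling: the ratio of KO to WT was 0.506 by total counts, 0.495 under edgeR's TMM factors and 0.484 under median-of-ratios factors. Il33 over Il1rl1 went from 1.67 to 6.54 by FPKM. Il33 over Il1rap, the other chain of its receptor, went the other way, from 127 in the WT-labelled library to 92.1 in the KO-labelled library. Il1rl1 makes a membrane receptor and a secreted decoy from one gene, which a count per gene does not separate.

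Il1rn, the antagonist that blocks the IL-1 receptor, was the most counted gene among the ligands and antagonists of the family, with 10553 and 16732 counts (394 CPM and 673 CPM), and was 1.71-fold higher (1.67 to 1.75). The agonists were scarce beside it. Il1a had 32 and 83 counts (2.79-fold higher, 1.84 to 4.34), and Il1b had 0 in both libraries, so it lay under the limit of 3 counts given above (its exact Poisson intervals reach 0.138 CPM and 0.148 CPM). By FPKM, Il1rn exceeded Il1a by 118-fold in the WT-labelled library and 71.9-fold in the KO-labelled library. Il18 had 59 and 61 counts (ratio 1.11, 0.766 to 1.62). Il1f9 had 14 and 13 counts, Il1f6 2 and 3, and Il1f10 1 and 0, while Il1f5 and Il1f8 had none. About 11.2% of the exon bases of Il1a are shared with Gm14023 on the other strand, and the kit does not mark strand, so part of its count could belong to that gene.

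Among the receptors, Il1rap, the chain shared by the IL-1 and IL-33 receptors (chr16:26581704-26730117, plus strand), had 232 and 587 counts, 8.65 CPM (7.58 to 9.84) and 23.6 CPM (21.7 to 25.6), or 0.806 and 2.11 FPKM. It was 2.73-fold higher (2.34 to 3.19) in the KO-labelled library. Il18rap, the accessory chain for IL-18, had 43 and 113 counts (2.83-fold higher, 1.98 to 4.12), although Il18r1, the binding chain, had none in either library. Il1r1, the IL-1 receptor, had 2449 and 1756 counts and was 1.29-fold lower (1.22 to 1.38). Il1rl2, the IL-36 receptor, had 164 and 115 (1.32-fold lower, 1.04 to 1.69). Il18bp, the secreted inhibitor of IL-18 and a known interferon-induced gene, had 145 and 69 (1.95-fold lower, 1.45 to 2.64). The decoy receptor Il1r2 had 11 and 13 counts, Il1rapl1 8 and 0, and Il1rapl2 none. In sum the ligands and antagonist of this family took 677 CPM and 1231 CPM, and the receptors and binding protein 513 CPM and 309 CPM.

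**Figure D4:**
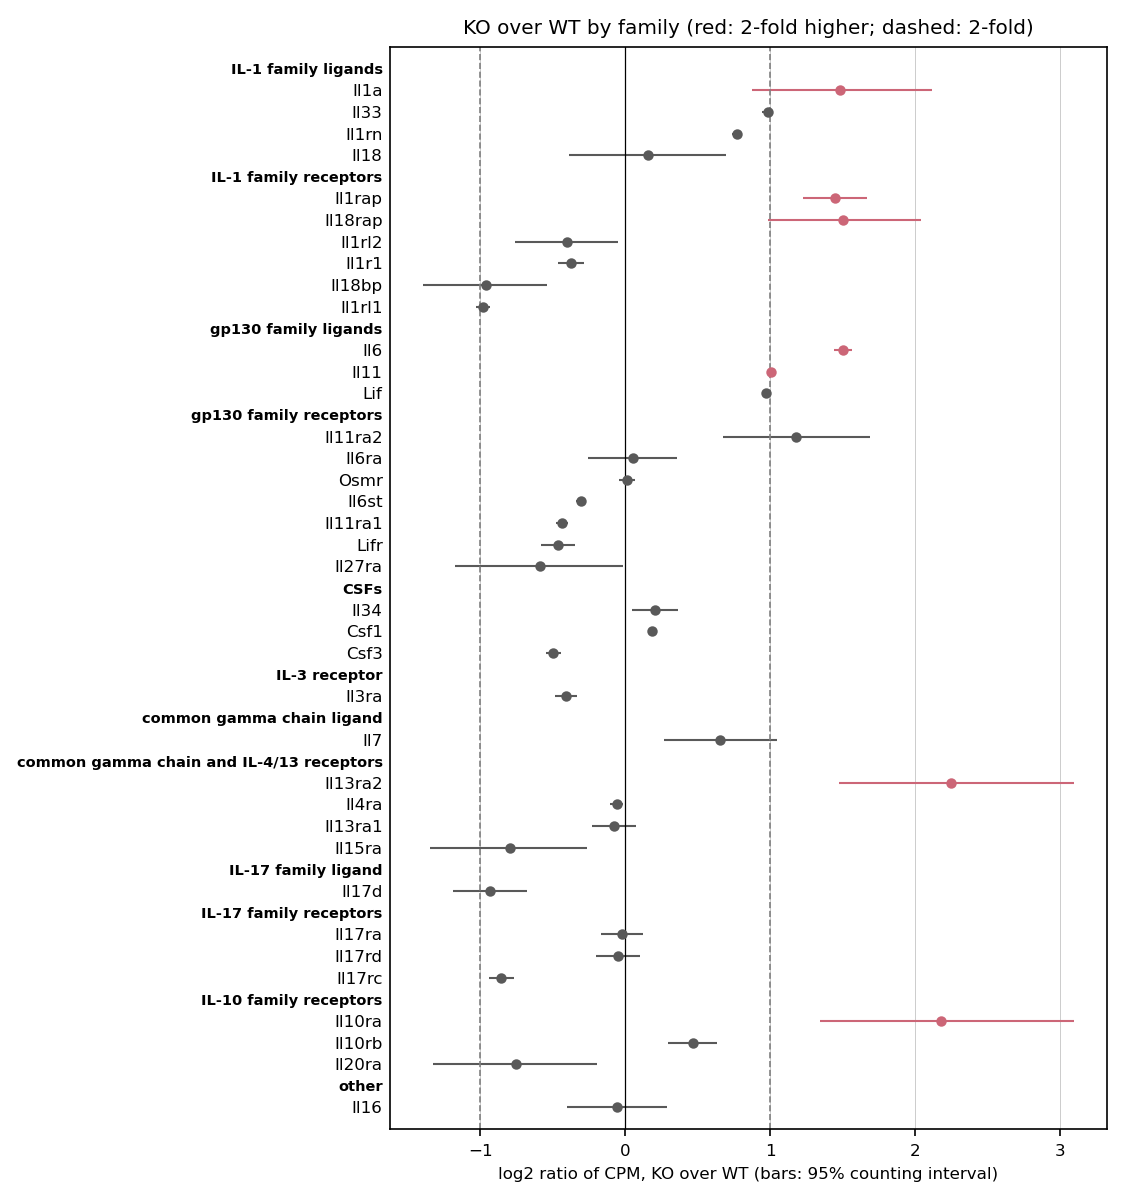
Log2 ratio of CPM without a pseudocount, KO over WT, for the 37 family genes in family order, with 95% exact counting intervals; dashed lines mark 2-fold and red points the 7 genes counted as higher. Il6 lies clear of the 2-fold line with a narrow interval, Il11, Lif and Il33 lie on it, and Il1rl1 lies on the line of the opposite sign.

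Of the colony-stimulating factor genes, Csf1 and Csf3 were abundant and Csf2 was scarce, and none was counted as 2-fold different. Csf1, the main growth factor of macrophages (chr3:107741048-107760469, minus strand), had 25427 and 26843 counts, 949 CPM and 1079 CPM, and a ratio of 1.14 (1.12 to 1.16). Il34, which encodes the other ligand of the same receptor, had 626 and 671 counts (ratio 1.16, 1.03 to 1.29). Csf3, the granulocyte factor (chr11:98701263-98703629, plus strand), had 7945 and 5231 counts, 296 CPM and 210 CPM, and was 1.41-fold lower (1.36 to 1.46) in the KO-labelled library. Csf3 was thus the one abundant secreted factor of the set that was lower there. Csf2, the granulocyte-macrophage factor, had 18 and 46 counts, under the minimum, with a ratio of 2.75 (1.57 to 5.05). Il3 and Il5 had none. Il3ra, the IL-3 binding chain, had 3398 and 2381 counts (1.32-fold lower, 1.26 to 1.40), and Il5ra none.

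Of the common gamma chain cytokines, which support lymphocytes, only Il7 passed the minimum, with 95 and 139 counts (ratio 1.58, 1.21 to 2.07). Il15 had 39 and 34 counts, Il4 18 and 13, and Il2 1 in each, and Il9, Il13 and Il21 had none. Receptor chains of this group lay at a few CPM or less, apart from Il4ra and Il13ra1. Il4ra, the chain for IL-4 and IL-13, had 8322 and 7421 counts, 310 CPM and 298 CPM (1.04-fold lower, 1.01 to 1.07), and Il13ra1, its partner, 748 and 659 (ratio 0.949, 0.854 to 1.06). Il15ra had 86 and 46 counts (1.74-fold lower, 1.20 to 2.54). The shared chain Il2rg had 14 and 31 counts, Il2rb 15 and 23, Il21r 11 and 21, Il7r 6 and 18, and Il2ra 1 and 6. Il9r had none.

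Il13ra2, the decoy receptor that binds IL-13 (chrX:147383476-147429192, minus strand), had the highest log2 ratio of the 37 genes, at 1.63. Its counts were few, at 17 in the WT-labelled library, or 0.634 CPM (0.369 to 1.02), and 75 in the KO-labelled library, or 3.01 CPM (2.37 to 3.78), with 0.294 and 1.34 FPKM. The intervals do not overlap, and the ratio was 4.75 (2.78 to 8.59). It lies on the X chromosome, as do Il13ra1, Il2rg, Il1rapl1 and Il1rapl2, and Xist differed between the libraries as given above; the part of this difference in the result was not tested.

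The IL-17 family genes past the minimum were lower or level in the KO-labelled library. Il17d, the one ligand with counts, had 397 and 193 (1.91-fold lower, 1.60 to 2.28), and Il17a, Il17b, Il17c, Il17f and Il25 had none. Il17rc, a chain of the IL-17A receptor, had 3043 and 1562 counts, 114 CPM and 62.8 CPM, and was 1.81-fold lower (1.70 to 1.92). Il17ra, its partner, was level at 791 and 723 counts (ratio 0.985, 0.889 to 1.09), as was Il17rd at 746 and 668 (ratio 0.965, 0.868 to 1.07). Il17re had 1 and 2 counts and Il17rb none.

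In the IL-10 family, Il10ra, the IL-10 binding chain of blood-derived cells (chr9:45253837-45269149, minus strand), had 15 and 63 counts, 0.560 CPM (0.313 to 0.923) and 2.53 CPM (1.95 to 3.24), a ratio of 4.53 (2.55 to 8.56), with 0.169 and 0.737 FPKM. Il10rb, the widely expressed partner chain, had 509 and 653 counts (ratio 1.38, 1.23 to 1.56), with 14.9% of its exon bases shared with the overlapping entry Gm21970. Il20ra had 78 and 43 counts (1.68-fold lower, 1.15 to 2.50) and Il20rb 10 and 7. The ligands were at or near 0, with 0 and 2 counts for Il10, 4 and 5 for Il19 and none for Il20, Il22 and Il24. Il22ra1 and Il22ra2 had none.

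The IL-12 family, made by antigen-presenting cells, was scarcely counted. Il12a had 2 and 0 counts, Il12b 1 and 2 and Il23a 2 and 6. Among the receptors, Il12rb1 had 38 and 32, Il12rb2 0 and 6, and Il23r none. Il12rb2 shares 40.0% of its exon bases with Serbp1. Tnf, the tumour necrosis factor gene, had 2 and 18 counts, a ratio of 9.70 (2.32 to 86.2) under the minimum. Il16 had 150 and 134 counts (ratio 0.963, 0.757 to 1.22), with 17.4% of its exon bases shared, mostly with Stard5. Il4i1 had 7 and 8 counts and shares 86.3% of its exon bases with other genes, so its reads cannot be assigned. The antisense entry Il1bos had none.

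Over all families, the 12 ligand genes past the minimum (Il1rn left out) had a median log2 ratio of 0.40, with 9 above 0. The 23 receptor entries past it (Il18bp left out) had a median of -0.07, with 8 above 0. Of all genes, 6807 of 12382 were above 0. The difference between ligands and receptors was not tested.

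Markers of cells that make or answer to these cytokines were counted in the same libraries. Of 13 macrophage marker entries for 12 genes, 10 of the 11 past the minimum were at least 2-fold higher, with a median log2 ratio of 2.06. Their summed level was 439 CPM in the WT-labelled library and 1339 CPM in the KO-labelled library, with the lysozyme gene Lyz2 the most counted (217 CPM and 846 CPM, 3.89-fold, 3.78 to 4.01). On log2 of CPM + 0.5 the highest were Fcer1g (5.70-fold, 4.75 to 6.88), Mrc1 (5.10-fold, 4.49 to 5.81) and Itgam (8 and 81 counts, 10.9-fold, 5.28 to 26.1), and the lowest was Cd14 (1.12-fold lower, 1.06 to 1.18). A second entry named Itgam was at 0 in both. The counted Itgam entry and Ptprc (16 and 103 counts) had under 50 counts in the WT-labelled library and entered through the KO-labelled library alone. Il10ra, described above, was higher in the same library, and the part of the macrophage markers in this and the other differences was not tested. Endothelial markers were higher for 4 of the 8 past the minimum (median 1.08), summing to 43.3 CPM and 61.7 CPM, none of the 10 at 0 in both. Of the 8, Kdr, Pecam1, Tie1 and Esam had under 50 counts in the WT-labelled library and entered through the KO-labelled library alone. Among those with 50 or more counts in both, only Cdh5 was higher. Kdr (8 and 58 counts), Cdh5 (175 and 576) and Pecam1 (38 and 104) had the largest log2 ratios. Egfl7 (463 and 295 counts) was 1.46-fold lower (1.26 to 1.69) in the KO-labelled library. Emcn had a ratio of 0.828 (0.671 to 1.02) and Tek of 1.02 (0.822 to 1.27). Of 8 T cell markers Cd2, Cd3e, Cd3g and Cd8a were at 0 in both libraries and the list summed to 3.25 CPM and 10.3 CPM, mostly from Cd4, a gene that macrophages can express. Of the B cell markers, Cd79b and Ms4a1 were at 0 in both. Of 7 neutrophil markers Elane, Mpo and S100a9 were at 0, while Camp had 1294 and 1276 counts and S100a8 98 and 248. The 7 mast cell markers summed to 5.48 CPM and 6.91 CPM (Mcpt4 54 and 51 counts, Cma1 20 and 50). The 6 keratinocyte markers summed to 4.29 CPM and 4.38 CPM, nearly all from Krt10 (111 and 102 counts), with Krt14 and Dsp at 0 in both. Fibroblast markers had a median log2 ratio of 0.37, with 0 of 8 past 2-fold, and Dcn (26680 and 47148 counts) the highest.

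**Figure D5:**
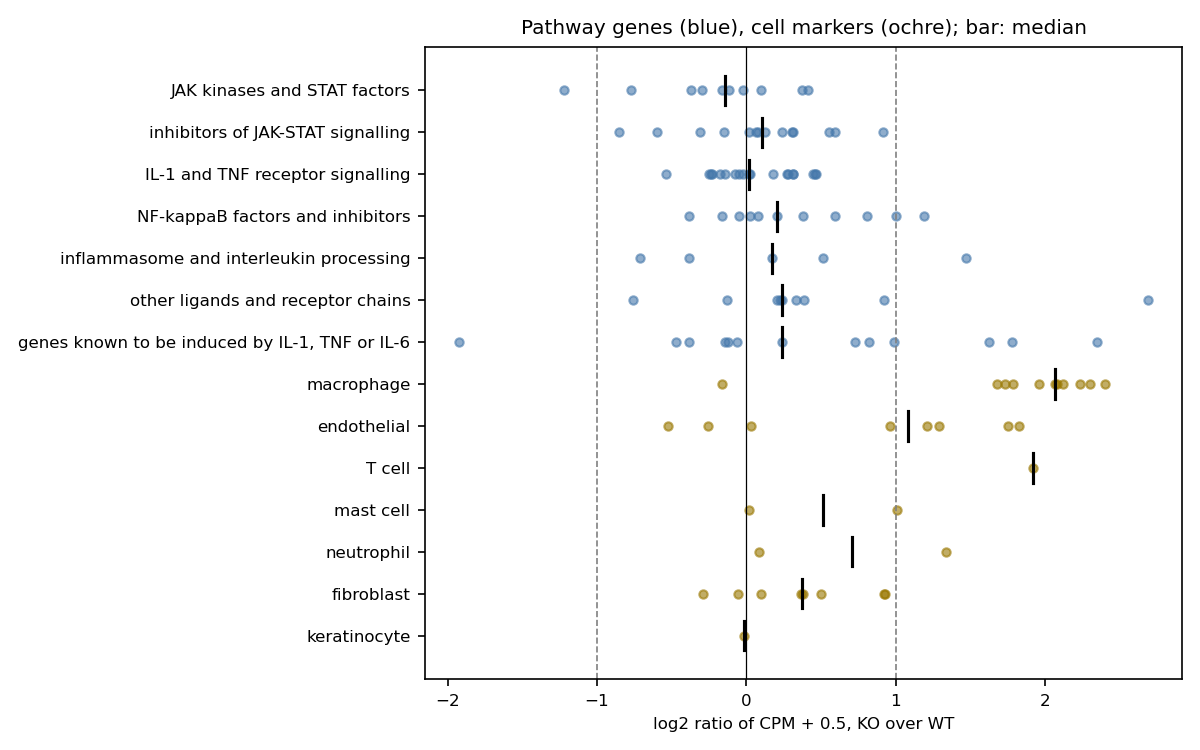
Log2 ratio (CPM + 0.5, KO over WT) of genes past the minimum in each list of pathway genes (blue) and cell type markers (ochre), 1 point per gene and a bar at the median; dashed lines mark 2-fold. Medians of the pathway lists lie between -0.14 and 0.24, and that of the macrophage markers at 2.06.

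Other genes of these pathways were counted from 7 lists of signalling proteins, inhibitors, processing enzymes, further ligands and receptors, and induced genes, none of them a family member. Of 96 genes 81 passed the minimum. At 2-fold 7 were higher (8.64%, against 4.47% of all genes) and 2 lower (2.47%, against 2.82%). Of the 81, counting intervals lay off 1 for 39 above and 25 below, and 40.3% and 31.2% of all genes did so. The median log2 ratio was 0.10, against 0.06 for all genes. Of the JAK kinases and STAT factors 0 of 10 were higher and 1 was lower, the interferon-pathway factor Stat2 (2.35-fold lower, 2.16 to 2.56). Jak1 had a ratio of 1.34 (1.28 to 1.39). Stat3, the factor that gp130 ligands activate, was level, at 222 CPM and 219 CPM. Of 14 inhibitors of this pathway none passed 2-fold in either direction. Socs3, the feedback inhibitor that STAT3 induces, was level at 154 CPM and 161 CPM (ratio 1.04, 0.999 to 1.09), Socs1 was 1.82-fold lower (1.66 to 1.99), and the phosphatase genes Ptpn6 and Ptpn11 had ratios of 2.00 (1.57 to 2.54) and 1.51 (1.44 to 1.58).

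Of 19 measured genes of IL-1 and TNF receptor signalling none passed 2-fold; Tnfrsf1a, the main TNF receptor, was 1.19-fold lower (1.15 to 1.23) and Tradd 1.45-fold lower (1.34 to 1.58), and Map3k7 had a ratio of 1.39 (1.25 to 1.55) and Irak3 1.38 (1.27 to 1.51). Of 11 NF-kappaB factors and inhibitors 2 were higher, Rel (2.51-fold, 1.90 to 3.35) and the inhibitor gene Tnfaip3 (2.11-fold, 1.69 to 2.64), both at low counts, and Nfkb1 had a ratio of 1.75 (1.66 to 1.85). Among 5 measured inflammasome and processing genes Nlrp3, the sensor that leads to IL-1beta release, was higher (47 and 143 counts, 3.28-fold, 2.34 to 4.66), the adaptor gene Pycard was 1.69-fold lower (1.38 to 2.08), and the protease gene Adam17 had a ratio of 1.43 (1.33 to 1.55).

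Of 9 measured genes for other ligands and receptor chains 1 was higher, Tslp, an epithelial and stromal cytokine related to IL-7, with 179 and 1136 counts (6.84-fold, 5.84 to 8.05). Ctf1, another gp130 ligand gene, was 1.75-fold lower (1.42 to 2.16). Csf2rb, the common beta chain, had 55 and 108 counts (ratio 2.12, 1.52 to 2.98). It was not called, because its log2 ratio of CPM + 0.5 was 0.92. Genes known to be induced by IL-1, TNF or IL-6 did not share a direction, with 3 of 13 higher, 1 lower and a median of 0.24. The prostaglandin synthase gene Ptgs2 reached 539 CPM and 1664 CPM (3.09-fold, 3.03 to 3.15), and the iron-binding lipocalin gene Lcn2 52.6 CPM and 269 CPM (5.12-fold, 4.83 to 5.43). Nos2 had 93 and 326 counts (3.78-fold, 2.99 to 4.81). The adhesion molecule gene Icam1 went the other way, with 4976 and 1211 counts (3.81-fold lower, 3.58 to 4.06), and Vcam1 had a ratio of 1.18 (1.16 to 1.21).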

How the data were processed

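Per the labels, total RNA of pooled retinas was depleted of ribosomal RNA with a Ribo-Zero kit and made into libraries with a NEBNext Ultra RNA kit. The submitters' processing notes name HISAT2 and the build mm10 (GRCm38). No source used here names the counter, the annotation or the strand setting. The deposited tables hold whole-number counts per gene and the authors' FPKM, per the file headers.

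Counts were divided by the total of all genes (CPM). Ratios were taken on log2 of CPM + 0.5 for calls and without addition for folds, with 95% exact Clopper-Pearson intervals. Levels have exact Poisson intervals. Genes needed 50 counts in the higher library, and 2-fold was the call. FPKM served to compare levels between genes. From the whole table, 4 genes were left out because count over FPKM, compared between the libraries, departed by over 1% from the median gene, none a family member. All 93 entries matched GENCODE M21 (GRCm38), the source of positions, exon overlaps and 3' UTRs (the longest of each gene's coding transcripts). Promoters and the miRNA came from RefSeq (GRCm38.p6), matched by symbol.

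Every family gene past the minimum is named; in each other list, at most 3 by size of log2 ratio and 2 by counts. Some genes that this rule names are not reported here. Genes under the minimum, Il11 and Lif promoters and the printed target sites were added after values were seen. So were the endothelial markers Emcn, Tek, Tie1 and Esam and the macrophage marker Ptprc. The members and lists were chosen with earlier results of these data known. Alternatives were other scalings, pseudocounts, minimums and thresholds, FPKM and a correction for transcript GC content and length. The calculation was first tested on simulated counts. Tools were edgeR 4.0.16 in R 4.3.3, and scipy 1.17.1, pandas 2.3.3, numpy 2.4.6 and matplotlib 3.10.9 in Python 3.11.15.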

Additional observations from a re-analysis of the deposited data

How the results depend on the processing

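The count of family genes 2-fold higher in the KO-labelled library was 7 of 37. It was 3 with the authors' FPKM (Il6, Il1rap and Il13ra2), where 2.60% of all genes were higher. There 0.5 was added to FPKM too, and without it Il10ra was 4.35-fold, Il18rap 2.72-fold and Il1a 2.69-fold higher. Il6, Il11 and Il1rap were the genes called with a pseudocount of 2 CPM (3 of 37). The same 3 were called with a minimum of 200 counts (3 of 23) and with 50 or more counts in both libraries (3 of 30). Of all genes, 2.83%, 3.46% and 3.06% were higher under these settings, in that order. The count was 4 where the whole counting interval had to lie beyond 2-fold (3% of all genes), 12 at 1.5-fold and 0 at 4-fold (0.832% of all genes). Il6 and Il1rap were among the genes called higher under every setting tried except the 4-fold threshold. Il11ra2 on chromosome 4 was called higher with a pseudocount of 0.1 CPM and after the GC and length correction. It was also called with totals that left out mitochondrial genes and the top 20 genes. At 1.5-fold, 13.3% of all genes were higher and 8.88% lower. The count of lower genes was 0; it was 1 under TMM factors, 1 under median-of-ratios factors and 1 with FPKM (Il1rl1 each time), 2 after the correction for GC content and length (Il1rl1 and Il18bp) and 6 at 1.5-fold. Il11 was not called under TMM factors (ratio 1.97), median-of-ratios factors (1.92), FPKM or the GC and length correction (log2 ratio 0.98). That correction took the log2 ratio of Il6 to 1.20, of Il33 from 0.98 to 0.67 and of Il1rl1 from -0.98 to -1.31, and left Lif at 0.99. The median log2 ratio of the family was -0.02 and ran from -0.09 to -0.02 under other scalings, units and pseudocounts, and was 0.11 with no count minimum, where 66 entries enter. Osmr and Il6ra, whose ratios were near 1, changed sign under other scalings or FPKM. Requiring a mean of 50 counts, chosen after seeing the data, gave 5 higher and 0 lower of 35, where 4.11% and 2.57% of all genes were. No paired analysis was possible because each group has 1 library. Depth limits the genes under 50 counts, whose intervals are wide.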
